A study of Danio rerio with 1152 samples.

Results

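Expression of 5 genes of the blastoderm margin, TA, TBX16, EVE1, MIXL1 and CDX4, was followed across single cells of zebrafish embryos at 50% epiboly (6 hours of development at 28C, per the labels), when involution at the margin begins. The 5 genes were chosen by name, as rows of a deposited table of 13902 genes, and all 5 were present. They were read in the cells with at least 2000 detected genes, which were 1000 of 1152 wells (90.4% of the wells of batch 1, 77.1% of batch 2 and 92.97% of batch 3). Per the labels' protocols, embryos came from TL/AB in-crosses, blastoderm caps were dissociated after removal of the yolk, and single cells were hand-picked. The labels give no treatment, no genotype other than the crosses and no group other than the batch. They name 2 culture temperatures without assigning cells to them, and do not state how many embryos gave a batch. Nothing says that the batches are separate clutches, so the spread between them may be partly technical.

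The margin is the rim of the blastoderm next to the yolk, where Nodal, Wnt and FGF ligands induce mesoderm and endoderm. T-box transcription factors act downstream of these signals: TA, listed by RefSeq as tbxta, is the brachyury gene disrupted in the no tail mutant, and TBX16 is the spadetail gene, needed for the migration of mesodermal cells. MIXL1, the bonnie and clyde gene, is a Nodal-induced homeobox gene needed for endoderm. EVE1, an even-skipped-related homeobox gene, and CDX4, a caudal-related homeobox gene, are known for roles in the ventral and posterior body. CHD encodes the BMP antagonist Chordin of the dorsal side, and SZL encodes Sizzled, a secreted protein of the ventral side, so both genes serve as landmarks of the dorsoventral axis.

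Counts are unique molecular identifiers (UMIs), random tags that mark single cDNA molecules. A level is given as UMIs per 10000 UMIs of a cell. Where detection, combinations and pairs of genes are compared as shares, cells were thinned to 10000 UMIs unless another setting is named. The 7 shallower cells were left out, so that 993 remained. A cell was called on for a gene with at least 2 UMIs and a level of at least 1, and off with 0 UMIs in its full counts. Shares of on and off cells, and of cells with a UMI within a class, rest on full counts, so depth was not matched there. The kept cells held 5307 to 132749 UMIs, with medians of 57293, 55922.5 and 35746 in batches 1, 2 and 3. An off call therefore rests on fewer molecules in batch 3. Counts of 1 pair of wells, from batches 1 and 2, agreed within sampling noise (chi-square per degree of freedom 0.500, against 1.09 for the next closest pair), so the pair may be one library. Leaving both out changed no call on the 5 genes.

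TBX16 was found most widely. In thinned cells it was detected in 67.3%, 71.3% and 73.4% of cells in batches 1, 2 and 3, and with full counts in 88.2% ± 1.04 of cells (mean ± SD of 3 batches). The median cell of batches 1, 2 and 3 had a level of 1.60, 2.08 and 1.94, and the highest cell had 9.93, 21.2 and 17.5.

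EVE1 was detected in 50.9%, 33.8% and 59.6% of thinned cells of batches 1, 2 and 3, so that batch 2 stood lowest. Mean levels were 3.11, 2.47 and 5.43 in these batches. EVE1 had the longest upper tail of the 5 genes, with 9.80%, 8.45% and 21.3% of cells at a level of 10 or more. Its highest cell in these batches had a level of 28.7, 37.97 and 49.6.

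TA was detected in 38.4%, 34.8% and 54.8% of thinned cells of batches 1, 2 and 3. Mean levels were 1.25, 2.13 and 2.27. Batch 2 had the fewest TA-positive cells, yet 7.43% of its cells reached a level of 10 or more, against 0.865% in batch 1 and 3.64% in batch 3. The 10% of cells with the highest TA levels held 67.8% of the summed TA level in batch 2, compared with 50.8% in batch 1 and 41.7% in batch 3.

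MIXL1 was detected in 32.7%, 27.6% and 39.8% of thinned cells of batches 1, 2 and 3, with mean levels of 1.12, 1.60 and 2.21. CDX4 was the least often detected of the 5, in 15.3%, 12.97% and 25.7% of thinned cells. Its mean levels were 0.350, 0.334 and 0.654, and in no batch did a cell reach a level of 10. Over the 3 batches the shares of thinned cells were 70.7% ± 3.10 for TBX16, 48.1% ± 13.1 for EVE1, 42.7% ± 10.6 for TA, 33.4% ± 6.12 for MIXL1 and 17.998% ± 6.78 for CDX4 (SD, n = 3). TBX16 stood above EVE1, TA above MIXL1 and MIXL1 above CDX4 in each of the 3 batches, whereas EVE1 stood above TA in batches 1 and 3 and below it in batch 2.

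**Figure D1:**
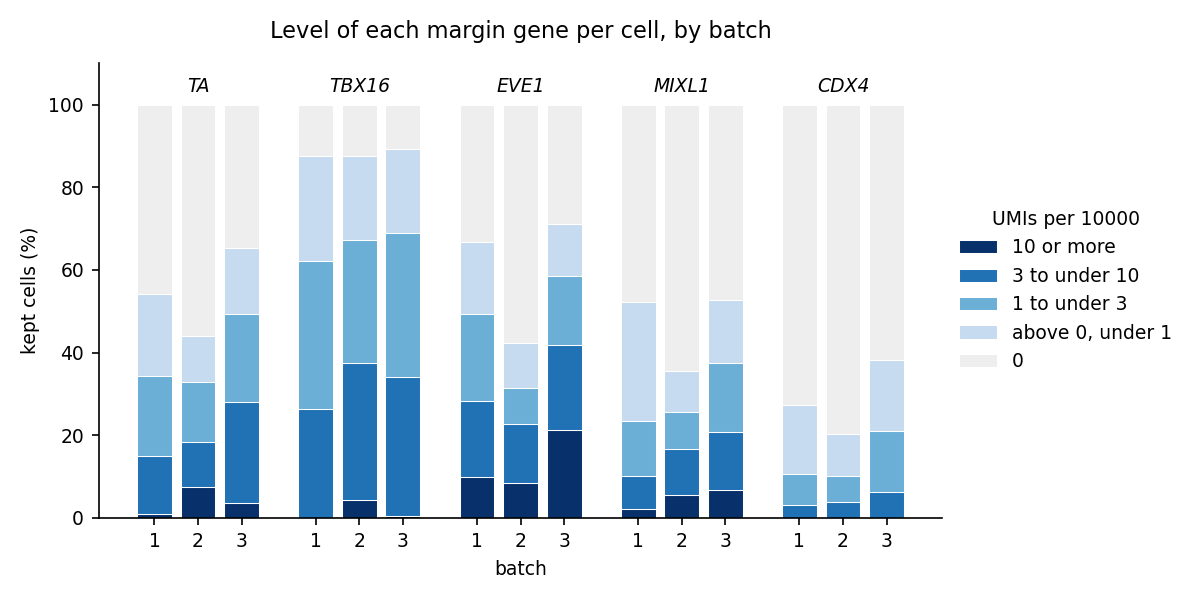
Share of kept cells (%, vertical axis) in 5 ranges of level (UMIs per 10000, colours) for each of the 5 genes, 1 bar per batch. TBX16 was found in most cells, EVE1 reached 10 or more in 21.3% of cells of batch 3, and CDX4 stayed at 0 in 61.9% to 79.7% of cells.

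Domains overlapped without being identical. Of the 993 thinned cells, 14.2% had none of the 5 genes and 7.75% had all 5. These shares depend on depth: with full counts 4.5% had none and 17.7% all 5, and with at least 2 thinned UMIs per gene 26.3% had none and 2.72% all 5. TBX16 was the gene most often found by itself. Of 702 TBX16-positive cells, 26.4% had none of the other 4 genes (Wilson 95% interval 23.2 to 29.7), with 25.3%, 39.7% and 16.5% in batches 1, 2 and 3. The other genes were seldom alone. EVE1 was alone in 8.85% of its positive cells, MIXL1 in 5.37%, TA in 4.66% and CDX4 in 3.30%. With full counts these shares were 2.78% for EVE1, 2.11% for MIXL1, 1.27% for TA, 1.72% for CDX4 and 18.6% for TBX16, so that TBX16 again had the highest. CDX4-positive cells had 3.02 of the other 4 genes on average, compared with 1.69 for TBX16-positive cells. Both the shares found alone and these averages depend on how many cells each gene was detected in. TBX16 was detected most widely and CDX4 least, so the partners of TBX16 were rarer genes and those of CDX4 commoner ones. Whether TBX16 was alone more often than these detection rates would give was not tested.

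The commonest combination after TBX16 alone was TA, TBX16, EVE1 and MIXL1 without CDX4, in 97 cells. All 5 genes followed with 77 cells, TBX16 with EVE1 with 73, and TA, TBX16 and EVE1 with 61. The order turned with depth. With full counts all 5 genes were the commonest combination, in 17.7% of cells, ahead of TBX16 alone in 16.4% and the 4 genes without CDX4 in 13.2%. Thinned to 20000 UMIs, TBX16 alone led with 17.01%, followed by all 5 with 12.6% and the 4 genes with 11.6%. Intervals here cover counting error only, and a gene missed at 10000 UMIs can still be expressed.

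For every pair of the 5 genes, each gene was found in a larger share of cells with the other than of cells without it. This held in all 3 batches. Within a batch the 2 orders of a pair must go the same way, so they are not separate results. TBX16 was found in 83.9% ± 2.19 of TA-positive cells and in 60.9% ± 2.58 of TA-negative cells. EVE1 was found in 69.99% ± 7.97 of TA-positive cells, against 32.3% ± 11.5 of TA-negative ones. MIXL1 was found in 57.4% ± 3.77 of TA-positive cells and in 16.3% ± 6.01 of TA-negative cells. CDX4 was found in 29.9% ± 7.86 of EVE1-positive cells, compared with 6.12% ± 0.213 of EVE1-negative cells (SD, n = 3).

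Set side by side, the shares of a pair in its 2 directions have the same cells as numerator, so their order only restates which gene was detected in more cells. TA was found in 76.1% ± 7.15 of CDX4-positive cells, whereas CDX4 was found in 31.5% ± 5.84 of TA-positive cells. EVE1 was found in 79.9% ± 10.9 of CDX4-positive cells. TA was found in 72.99% ± 7.29 of MIXL1-positive cells, and MIXL1 in 57.4% of TA-positive ones. EVE1 was found in 74.4%, 60.8% and 74.7% of TA-positive cells in batches 1, 2 and 3, and TA in 56.2%, 62.6% and 68.7% of EVE1-positive cells. For this pair the 2 shares were close in batch 2.

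**Figure D2:**
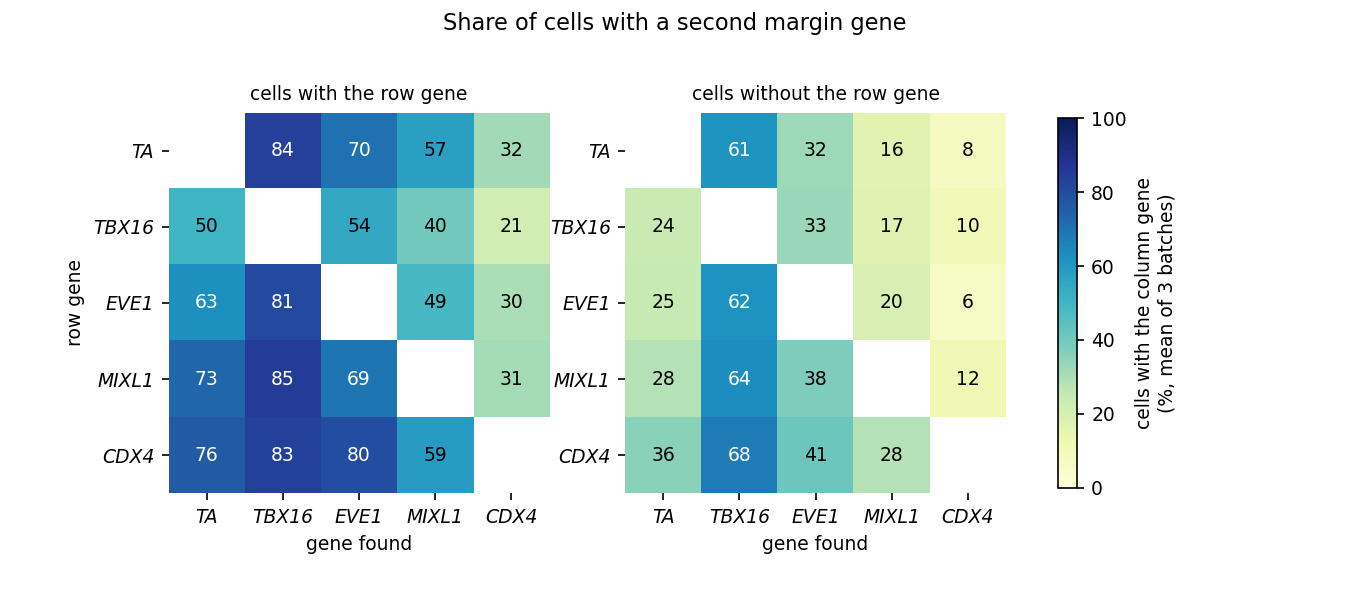
Mean share of thinned cells (%, colour and printed value, 3 batches) in which the column gene was found, among cells with the row gene (left) and cells without it (right). Each value on the left exceeds its counterpart on the right; TBX16 was found in 83.9% of TA-positive and 60.9% of TA-negative cells.

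The stricter on and off calls on full counts gave the share of cells in which one gene was clearly present and another not seen at all. TBX16 was off in 4.19% ± 0.819 of TA-on cells, in 3.41% ± 2.03 of MIXL1-on cells and in 6.33% ± 2.11 of CDX4-on cells (mean ± SD of 3 batches). Conversely, TA was off in 35.98% ± 11.1 of TBX16-on cells. EVE1 was off in 19.7% ± 9.06 of TA-on cells, and TA was off in 23.6% ± 3.29 of EVE1-on cells, so each gene was found without the other. MIXL1 was off in 26.7% ± 3.31 of TA-on cells, whereas TA was off in 14.3% ± 3.05 of MIXL1-on cells. CDX4-on cells lacked EVE1 in 9.78% ± 6.78 and TA in 13.6% ± 8.15 of cases. Over all kept cells of batches 1, 2 and 3, TBX16 was at 0 in 12.4%, 12.5% and 10.6% and TA in 45.8%, 56.1% and 34.7%. EVE1 was at 0 in 33.1%, 57.8% and 28.9%, and MIXL1 in 47.8%, 64.5% and 47.3%. Contrasts between the 2 directions of a pair thus depend on how many cells each gene was detected in.

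Averaged over batches, levels of the other 4 genes were higher in cells with higher TA levels, in a description with no test. Cells with a TA level of 10 or more, of which there were 3, 22 and 13 in batches 1, 2 and 3, had a mean MIXL1 level of 7.14 ± 2.03, against 0.411 ± 0.218 in the 449 cells with no TA UMI (mean ± SD of 3 batches). For TBX16 these values were 6.23 ± 2.15 and 1.74 ± 0.360, and for CDX4 2.17 ± 0.486 and 0.132 ± 0.0501. EVE1 had 13.5 ± 5.36 in the highest TA range and 1.28 ± 0.682 without TA. In batch 2, however, EVE1 had 7.52 at a TA level from 3 to 10 and 7.31 at 10 or more, so that it was no higher in the top range. The top range holds 3 cells in batch 1 and 13 in batch 3, so its values there rest on few cells. In the range from 3 to 10, with at least 32 cells in each batch, the level of MIXL1 was 3.99 ± 0.229 and that of TBX16 3.80 ± 0.201.

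**Figure D3:**
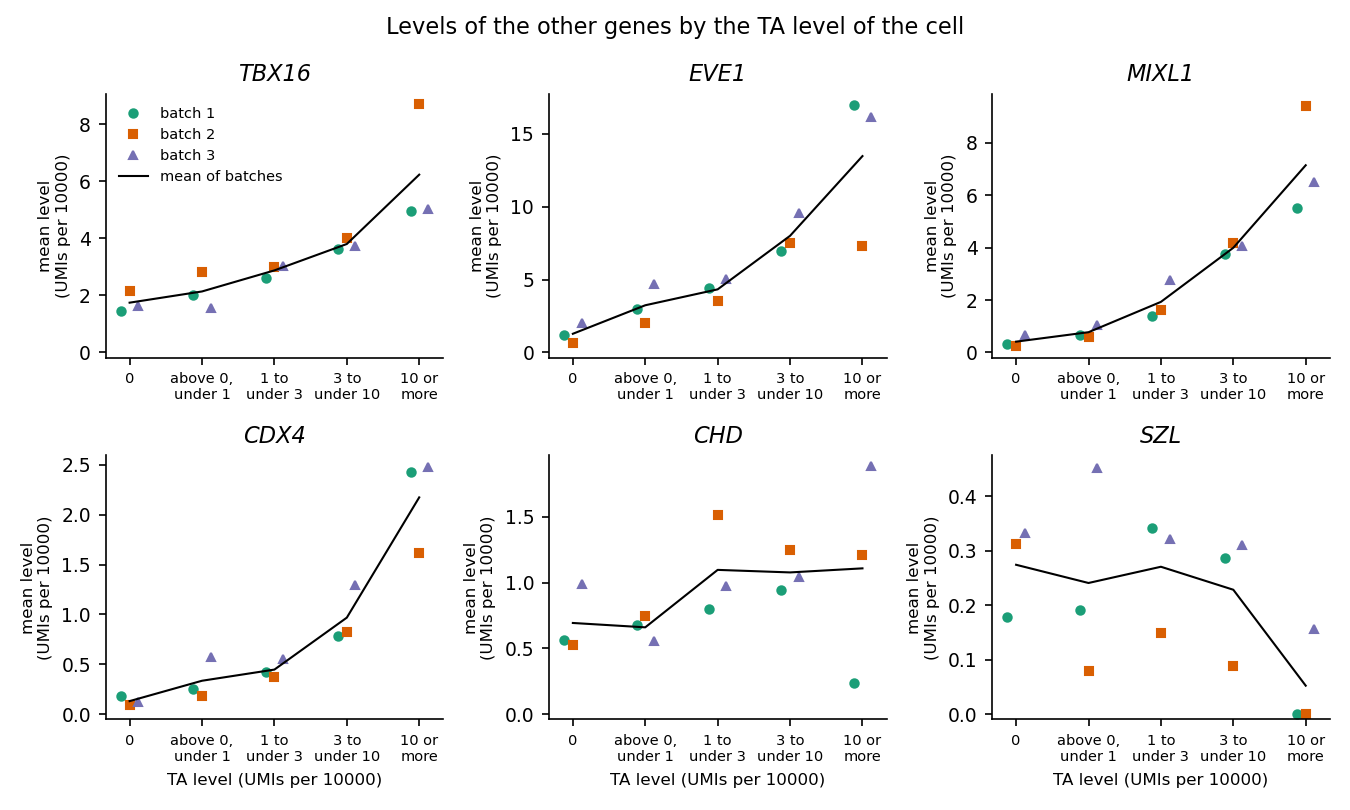
Mean level (UMIs per 10000, vertical axes) of the other 4 genes, CHD and SZL in cells grouped by TA level (horizontal axis, 0 to 10 or more), with 1 symbol per batch and a line for their mean. The means of TBX16, EVE1, MIXL1 and CDX4 climb with TA, with MIXL1 at 0.411 without TA and 7.14 at the highest TA levels. Between neighbouring ranges TBX16 and CDX4 dip in batch 3 and EVE1 dips in batch 2. The means of CHD and SZL show no steady climb.

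TA-on cells (392, at least 97 in each batch) were then set against TA-off cells (449). UMIs were summed per class and batch and tested with edgeR's quasi-likelihood test with batch as a block and Benjamini-Hochberg adjustment over 8193 genes; the batch is the replicate and cells are not. All 4 other margin genes were called higher in TA-on cells, where 1.9% of all genes tested were called, 1.49% higher and 0.415% lower. MIXL1 had a level of 2.31, 3.61 and 3.40 in the summed TA-on cells of batches 1, 2 and 3, against 0.333, 0.238 and 0.439 in TA-off cells. The log2 difference was 3.21 (SE 0.16, adjusted p = 4.98e-11). The groups did not overlap.

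CDX4 had 0.674, 0.645 and 1.07 in TA-on cells and 0.187, 0.065 and 0.137 in TA-off cells, a log2 difference of 2.66 (SE 0.26, adjusted p = 5.0e-07 by edgeR). EVE1 had 5.92, 5.50 and 7.74 in TA-on cells, against 1.21, 0.584 and 2.01 in TA-off cells. Its log2 difference was 2.46 (SE 0.15, adjusted p = 6.24e-10). TBX16 differed least of the 4, with 2.96, 4.09 and 3.52 in TA-on cells and 1.43, 2.10 and 1.52 in TA-off cells, a log2 difference of 1.06 (SE 0.09, adjusted p = 8.05e-08). Each of the 4 genes passed the test under all 14 alternative settings.

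The 2 landmarks behaved differently. CHD had 0.887, 1.40 and 1.18 in TA-on cells and 0.622, 0.450 and 0.712 in TA-off cells (log2 difference 0.94, SE 0.18, adjusted p = 0.00349 by edgeR). This call was lost without the batch block (adjusted p = 0.0931) and without the cells richest in keratins (adjusted p = 0.0595). SZL did not pass the test, with 0.345, 0.081 and 0.305 in TA-on cells and 0.204, 0.278 and 0.349 in TA-off cells (log2 difference -0.35, SE 0.36, adjusted p = 0.878 by edgeR). Its sign turned to 0.28 without batch 2.

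Other genes of the inducing pathways were read from lists chosen with earlier results of these data known, leaving out the 5 genes themselves. Of 13 Nodal pathway genes tested, 8 rose in TA-on cells and 1 fell, with a list median log2 difference of 1.11 against -0.01 over all genes. The Nodal ligand gene NDR1 had 0.437 ± 0.102 in TA-on cells and 0.046 ± 0.034 in TA-off cells. The feedback inhibitor gene LFT1 had 0.294 ± 0.038 and 0.020 ± 0.012 in these classes. FOXH1, which encodes a Nodal effector that is supplied maternally, fell, with a log2 difference of -0.41. Of 13 Wnt pathway genes, 8 rose and none fell (median 1.58). WNT11, the ligand gene of convergence and extension movements, had 6.72 ± 1.64 in TA-on cells and 0.488 ± 0.186 in TA-off cells, a log2 difference of 3.80 (SE 0.17, adjusted p = 1.86e-11 by edgeR). WNT8A and WNT8-2 also rose. They are neighbouring reading frames of a single locus in zebrafish, so their counts are uncertain relative to each other.

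Of 11 FGF pathway genes, 4 rose (median 1.35), among them the ligand gene FGF8A with 0.960 ± 0.365 in TA-on cells and 0.119 ± 0.027 in TA-off cells. The list of paraxial and posterior mesoderm had 15 of 17 tested genes higher and none lower (median 1.87). In it ALDH1A2, the retinoic acid synthesis gene, had the largest log2 difference of the genes named for TA-on against TA-off cells, 4.70 (SE 0.47), from 1062 UMIs in TA-on cells against 45 in TA-off cells. MSGN1, a factor of presomitic mesoderm, had 0.410 ± 0.258 in TA-on cells and 0.045 ± 0.036 in TA-off cells. TBX6, the 1 other T-box gene of 4 tested that was called, had 0.656 ± 0.336 in TA-on cells and 0.129 ± 0.050 in TA-off cells. SEBOX, a Mix-type homeobox gene, had 1.40 ± 0.212 in TA-on cells and 0.119 ± 0.024 in TA-off cells (SD, n = 3).

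Ventral and BMP genes showed a list median of 0.00, with 5 of 18 higher and none lower; VENT, a ventral homeobox gene, had 1.78 ± 0.289 in TA-on cells and 0.787 ± 0.181 in TA-off cells. Of 11 organizer and dorsal genes 5 rose, among them the notochord homeobox gene NOTO with 3.17 ± 0.932 in TA-on cells and 1.09 ± 0.036 in TA-off cells. NOTO was on in 455 of the 1000 kept cells, so in these data it did not mark a small group of cells. Among 13 genes of animal and neural ectoderm 4 fell and 1 rose (median -0.45). The neural factor gene SOX3 had 10.8 ± 2.37 in TA-on cells and 20.2 ± 0.486 in TA-off cells, while ZIC2A rose to 1.92 ± 0.484 in TA-on cells, against 0.442 ± 0.054 in TA-off cells. SHISA2, a gene of Wnt and FGF receptor maturation, had 10.0 ± 0.342 in TA-on cells and 16.7 ± 0.337 in TA-off cells. Markers of the enveloping layer, the outer epithelium, overlapped between the classes in their summed level, on which no test was run. Their summed level was 10.7 to 17.3 in TA-on cells and 9.79 to 11.9 in TA-off cells over 15 genes, of which KRT18 alone was called, and none was at 0 in any class. Without the cells richest in keratins all 4 margin genes passed the test.

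The next comparison asked how cells with EVE1 but no TA (43, 24 and 41 in batches 1, 2 and 3) differed from EVE1-on cells that were also TA-on (at least 60 in each batch). Of 8279 genes, 0.314% were called, 0.278% lower and 0.0362% higher in EVE1-on cells without TA. EVE1 itself was lower in the cells without TA, at 4.10, 4.01 and 5.49 in batches 1, 2 and 3, against 7.82, 8.70 and 9.77 in those with TA. The classes therefore differed in the EVE1 level as well as in TA, and the part of the EVE1 level in the results was not tested. Of the 3 other margin genes 1 was called. MIXL1 had 0.463, 0.231 and 0.501 in EVE1-on cells without TA, against 2.68, 4.89 and 3.57 in those with TA, a log2 difference of -3.11 (SE 0.29, adjusted p = 0.00131 by edgeR). TBX16 had 1.51, 3.31 and 1.89 in cells without TA and 3.08, 4.72 and 3.79 in cells with TA. Its groups overlapped across batches although every batch was lower without TA, and it missed the threshold (log2 difference -0.80, SE 0.14, adjusted p = 0.0556). TBX16 passed it under 6 of 14 alternatives, among them DESeq2 with an adjusted p of 0.00107 and the fit without batch 2 with 8.95e-05.

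CDX4 had 0.588, 0.094 and 0.258 in EVE1-on cells without TA and 0.838, 0.884 and 1.32 in those with TA (log2 difference -1.83, SE 0.45, adjusted p = 0.219 by edgeR). It passed under 4 of 14 alternatives, with an adjusted p of 0.00138 without batch 1 and 0.0388 without batch 2. CHD and SZL did not pass the test. SZL had 0.381, 0.581 and 0.578 in cells without TA and 0.375, 0.097 and 0.377 in cells with TA, a log2 difference of 1.04 (SE 0.50).

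Beyond the margin genes, the ligand genes WNT11, FGF8A and NDR1 were called lower in EVE1-on cells without TA. WNT11 had 0.899 ± 0.383 in them and 8.02 ± 3.10 in EVE1-on cells with TA, and FGF8A had 0.116 ± 0.018 and 0.980 ± 0.437 in these classes. NDR1 had 0.028 ± 0.025 without TA and 0.530 ± 0.136 with TA, from 16 and 708 UMIs. Of 13 Nodal pathway genes 3 fell and none rose (median -1.25, against -0.03 over all genes), of 14 Wnt pathway genes 1 fell, and of 12 FGF pathway genes 1 fell. APLNRB, an apelin receptor gene of migrating mesendoderm, fell to 0.626 ± 0.331 in cells without TA, against 2.64 ± 1.16 in cells with TA. SOX3 rose, with 19.6 ± 0.536 in cells without TA and 9.73 ± 2.82 in cells with TA, as did SHISA2 with 14.6 ± 1.41 and 8.62 ± 0.579. Of 19 ventral and BMP genes none was called (median 0.37). Summed enveloping layer markers were 8.11 to 10.1 in cells without TA and 10.3 to 15.1 in cells with TA, with 2 of 15 at 0 in batch 2 without TA; their part was not tested. The 26 calls of this comparison fell to 6 without batch 3 and reached 50 without batch 1 and 49 without batch 2, while MIXL1 stayed called under all 14 alternatives.

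Within TA-on cells, those with MIXL1 on (at least 55 in each batch) were set against those with MIXL1 off (32, 29 and 41). Of 8222 genes, 0.73% were called, 0.596% higher and 0.134% lower in MIXL1-on cells. TA itself was higher in MIXL1-on cells, at 4.50, 7.36 and 4.98 in batches 1, 2 and 3, against 2.54, 2.25 and 2.99 in MIXL1-off cells. The part of the TA level in the results was not tested. Of the 3 other margin genes 2 were called higher. TBX16 had 3.69, 5.11 and 4.11 in MIXL1-on cells and 2.19, 2.55 and 2.43 in MIXL1-off cells, with no overlap (log2 difference 0.80, SE 0.12, adjusted p = 0.0126 by edgeR). EVE1 had 6.77, 6.69 and 8.52 in MIXL1-on cells and 4.93, 3.20 and 5.05 in MIXL1-off cells, again without overlap, with a log2 difference of 0.72 (SE 0.12, adjusted p = 0.0231 by edgeR). Without batch 3 neither call held, with adjusted p of 0.0853 for TBX16 and 0.185 for EVE1. Without the batch block they were 0.0652 and 0.398. EVE1 was also not called with stricter on calls (adjusted p = 0.198) or thinned classes (0.170).

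CDX4 was higher in MIXL1-on cells in every batch, at 0.873, 0.827 and 1.21 against 0.381, 0.210 and 0.785 in MIXL1-off cells, but did not pass the test (log2 difference 1.19, SE 0.31, adjusted p = 0.234 by edgeR). CHD had a log2 difference of 0.85 (SE 0.25) and SZL one of -1.12 (SE 0.47), and neither passed.

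Of 13 Nodal pathway genes 7 rose and none fell (median 2.30, against 0.01 over all genes). GATA5, a factor of endoderm and heart, had 2.26 ± 0.416 in MIXL1-on cells and 0.212 ± 0.145 in MIXL1-off cells. NDR2, a Nodal ligand gene, had 1.12 ± 0.330 and 0.146 ± 0.036 in these classes. Of 18 genes of paraxial and posterior mesoderm 7 rose, led by MESPAB with 1.33 ± 0.124 in MIXL1-on cells and 0.026 ± 0.013 in MIXL1-off cells, from 1376 and 13 UMIs. MESPAA, its paralog, rose too, and reads shared by the pair could have been split between them. OSR1, a zinc finger gene, had 4.25 ± 0.706 in MIXL1-on cells and 0.242 ± 0.144 in MIXL1-off cells, a log2 difference of 4.19 (SE 0.28, adjusted p = 3.47e-05 by edgeR). Of 14 Wnt pathway genes 5 rose, among them the Wnt antagonist gene DKK1B with 2.79 ± 0.791 in MIXL1-on cells and 0.158 ± 0.057 in MIXL1-off cells. FRZB, also a Wnt antagonist gene, had 0.254 ± 0.108 in MIXL1-on cells, but only 3 UMIs in all in MIXL1-off cells, so the size of its difference rests on very few counts.

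Of 8 endoderm genes 3 rose. Of 13 organizer and dorsal genes 4 rose, and of 18 ventral and BMP genes 1 rose, DRL. Of 14 genes of animal and neural ectoderm 4 fell, 1 rose and 9 were not called (median -0.34). SOX3 had 6.62 ± 1.39 in MIXL1-on cells and 16.7 ± 3.25 in MIXL1-off cells, and SOX19A had 2.83 ± 0.751 and 5.69 ± 0.690. CXCR4B, a chemokine receptor gene, had 4.87 ± 0.355 in MIXL1-on cells and 9.87 ± 0.781 in MIXL1-off cells. Summed enveloping layer markers spanned 11.3 to 21.2 in MIXL1-on cells and 9.02 to 16.3 in MIXL1-off cells, and none of the 15 was called.

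Dorsoventral bias was first read as shares. Counting CHD-on cells with SZL off and SZL-on cells with CHD off, 20.7% of TA-on cells were CHD-on (95% interval 16.95 to 24.9) and 6.63% were SZL-on (4.57 to 9.54). MIXL1-on cells were 22.3% CHD-on (17.9 to 27.5) and 4.81% SZL-on (2.89 to 7.91). EVE1-on cells were 11.04% CHD-on (8.52 to 14.2) and 9.34% SZL-on (7.03 to 12.3). CDX4-on cells were 8.51% CHD-on (4.93 to 14.3) and 12.8% SZL-on (8.23 to 19.3). For all 1000 kept cells these shares were 15.5% (13.4 to 17.9) and 6.60% (5.22 to 8.31). The intervals are counting error within pooled cells and do not cover the spread between batches. TBX16-on cells, at 15.8% and 7.002%, lay within them. By batch, CDX4-on cells (37, 29 and 75) were 2.70%, 10.3% and 10.7% CHD-on and 16.2%, 6.90% and 13.3% SZL-on. In batch 2 the CHD-on share of CDX4-on cells was thus above their SZL-on share, unlike in batches 1 and 3. EVE1-on cells were 12.9%, 10.8% and 9.66% CHD-on and 8.19%, 5.38% and 12.1% SZL-on. Their SZL-on share exceeded their CHD-on share in batch 3 only. Of all kept cells 5.76%, 4.39% and 9.24% were SZL-on in batches 1, 2 and 3.

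The plates of batch 1 differed in this respect. On plates 5 and 6 together 28.4% of cells were on for CHD (22.1 to 35.6) and 2.37% for SZL (0.924 to 5.93), while on plates 7 and 8 the shares were 10.1% (6.49 to 15.4) and 12.9% (8.77 to 18.6). CDX4 was on in 5.33% of cells of plates 5 and 6 and in 15.7% of plates 7 and 8. The labels give plates for batch 1 alone, so within it the dorsoventral classes went partly with the plate. The comparisons below were therefore also fitted with batch 1 taken from plates 7 and 8, an alternative chosen after seeing the data. It changed 1 call, that of CDX4 within TA-on cells.

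CHD-on cells (56, 49 and 50 in batches 1, 2 and 3) were compared with SZL-on cells (20, 13 and 33). Of 8241 genes 0.243% were called, 0.0849% lower and 0.158% higher in CHD-on cells, and of the 5 margin genes 1 was called. EVE1 had 1.30, 1.32 and 2.08 in CHD-on cells, against 7.20, 2.27 and 10.0 in SZL-on cells. The groups did not overlap, but the SZL-on value of batch 2 rests on few cells. There EVE1 was found in 7 of 13 SZL-on cells, with a median cell level of 0.106 and a highest of 12.5. It was found in 15 of 49 CHD-on cells of that batch. The log2 difference was -1.92 (SE 0.27, adjusted p = 0.00733 by edgeR). With batch 1 from plates 7 and 8 it was -1.91 with an adjusted p of 0.000783. On plates 7 and 8 alone EVE1 had 1.39 in 15 CHD-on cells and 8.03 in 17 SZL-on cells. EVE1 passed under all 14 alternatives.

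By the level of summed cells CDX4 went the same way in every batch, with 0.09996, 0.224 and 0.364 in CHD-on cells and 0.756, 0.550 and 1.00 in SZL-on cells, without overlap. In batch 2, however, only 2 of 13 SZL-on cells had a CDX4 UMI (15.4%), against 18.4% of CHD-on cells. On plates 5 and 6 CDX4 had 0.123 in 41 CHD-on cells and 0 in 3 SZL-on cells. On plates 7 and 8 it had 0.0433 in 15 CHD-on cells and 0.908 in 17 SZL-on cells. CDX4 did not pass the test (log2 difference -1.92, SE 0.47, adjusted p = 0.278 by edgeR), although it did with DESeq2 (0.0182) and with no filter on low counts (0.0175). MIXL1 had 1.51, 1.77 and 3.92 in CHD-on cells and 1.69, 0.405 and 0.960 in SZL-on cells (log2 difference 1.24, SE 0.38, adjusted p = 0.543 by edgeR). TA had 1.57, 2.61 and 3.34 in CHD-on cells, against 1.89, 0.492 and 2.00 in SZL-on cells, with a log2 difference of 0.81 (SE 0.37, adjusted p = 0.935). For both genes batch 1 alone was lower in CHD-on cells. Without batch 1 they passed, with log2 differences of 2.00 for MIXL1 (adjusted p = 0.000166) and 1.41 for TA (adjusted p = 0.0211). TBX16 had 2.18, 2.78 and 2.72 in CHD-on cells and 3.12, 2.56 and 1.71 in SZL-on cells, a log2 difference of 0.04 (SE 0.21), and its sign turned in 3 of 14 alternatives.

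Dorsal and ventral gene lists were read from the same fit. Its classes are set by a dorsal and a ventral gene, so the direction of these lists is no independent support. Of 14 organizer and dorsal genes 6 rose in CHD-on cells (median 2.94, against 0.06 over all genes), with ADMP, a BMP ligand gene of the organizer, at 4.74 ± 1.28 in CHD-on cells and 0.352 ± 0.249 in SZL-on cells. GSC, the prechordal homeobox gene, had 450 UMIs in CHD-on cells and 3 in SZL-on cells. Of 18 ventral and BMP genes 4 fell (median -1.41). VED, a ventral homeobox gene, had 10.1 ± 2.98 in CHD-on cells and 37.3 ± 12.1 in SZL-on cells, a log2 difference equal to that of EVE1 at 2 decimals, -1.92 (SE 0.11). Summed enveloping layer markers were 8.67 to 21.1 in CHD-on cells and 4.99 to 10.8 in SZL-on cells, with up to 3 of 15 at 0 in a batch of SZL-on cells. Germ cell markers were 3.43 to 14.2 in CHD-on cells and 2.10 to 2.99 in SZL-on cells. The part of the germ cell markers was not tested. Without the cells richest in keratins the EVE1 difference was -2.14 (adjusted p = 0.000137 by edgeR). The 20 calls fell to 7 without batch 2 and came to 41 without batch 1 and 46 without batch 3.

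Within TA-on cells the comparison of CHD-on cells (24, 24 and 33) with SZL-on cells (11, 2 and 13) rests on 2 SZL-on cells in batch 2. All 8242 genes tested had a median log2 difference of 0.42, and differences should be read against it. Of all genes tested 0.158% were called, 0.0728% lower, and 2 of the 4 margin genes were among those lower. EVE1 had 1.29, 2.14 and 2.28 in CHD-on cells and 12.3, 8.11 and 16.2 in SZL-on cells, a log2 difference of -2.63 (SE 0.25). The fit of this comparison moderated the variance with unlimited prior degrees of freedom, so its p-values rest on the spread common to all genes and not on how a gene varied between batches. The adjusted p of EVE1 was 4.96e-22 by edgeR, 4.38e-08 by DESeq2 and 0.000684 by edgeR without the batch block. Over all settings it lay between 6.32e-39 and 0.000684. EVE1 passed under all 14 alternatives, with -2.51 when batch 1 came from plates 7 and 8. CDX4 had 0.109, 0.403 and 0.361 in CHD-on cells, against 1.36, 3.59 and 1.48 in SZL-on cells. In batch 2 EVE1 and CDX4 were each found in only 1 of the 2 SZL-on cells. The log2 difference of CDX4 was -2.86 (SE 0.72, adjusted p = 0.0405 by edgeR). The CDX4 call was lost in 8 of 14 alternatives, among them without batch 1 and without batch 3 (adjusted p of 1 in both), without the batch block (0.298), with batch 1 from plates 7 and 8 (0.133) and without the cells richest in keratins (0.0904).

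MIXL1 and TBX16 did not pass within TA-on cells. MIXL1 had 2.33, 2.34 and 4.27 in CHD-on cells and 3.09, 1.64 and 1.69 in SZL-on cells (log2 difference 0.52, SE 0.40). TBX16 had 2.93, 3.23 and 3.22 in CHD-on cells and 4.22, 4.52 and 2.39 in SZL-on cells (log2 difference -0.14, SE 0.33). Among other genes VED had 9.82 ± 2.24 in CHD-on cells and 38.7 ± 12.7 in SZL-on cells, and the dorsal gene FOXA3 had 3.47 ± 0.675 and 0.469 ± 0.310. The enveloping layer gene KRT18 was called higher in CHD-on cells, at 5.64 ± 0.930 against 2.22 ± 1.06 in SZL-on cells, and the summed markers were 9.08 to 19.4 and 2.57 to 7.78 in these classes, with 14 of 15 at 0 in the 2 SZL-on cells of batch 2. Without the cells richest in keratins EVE1 had a log2 difference of -2.87. The 13 calls became 8 without batch 1, 22 without batch 2 and 7 without batch 3.

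**Figure D4:**
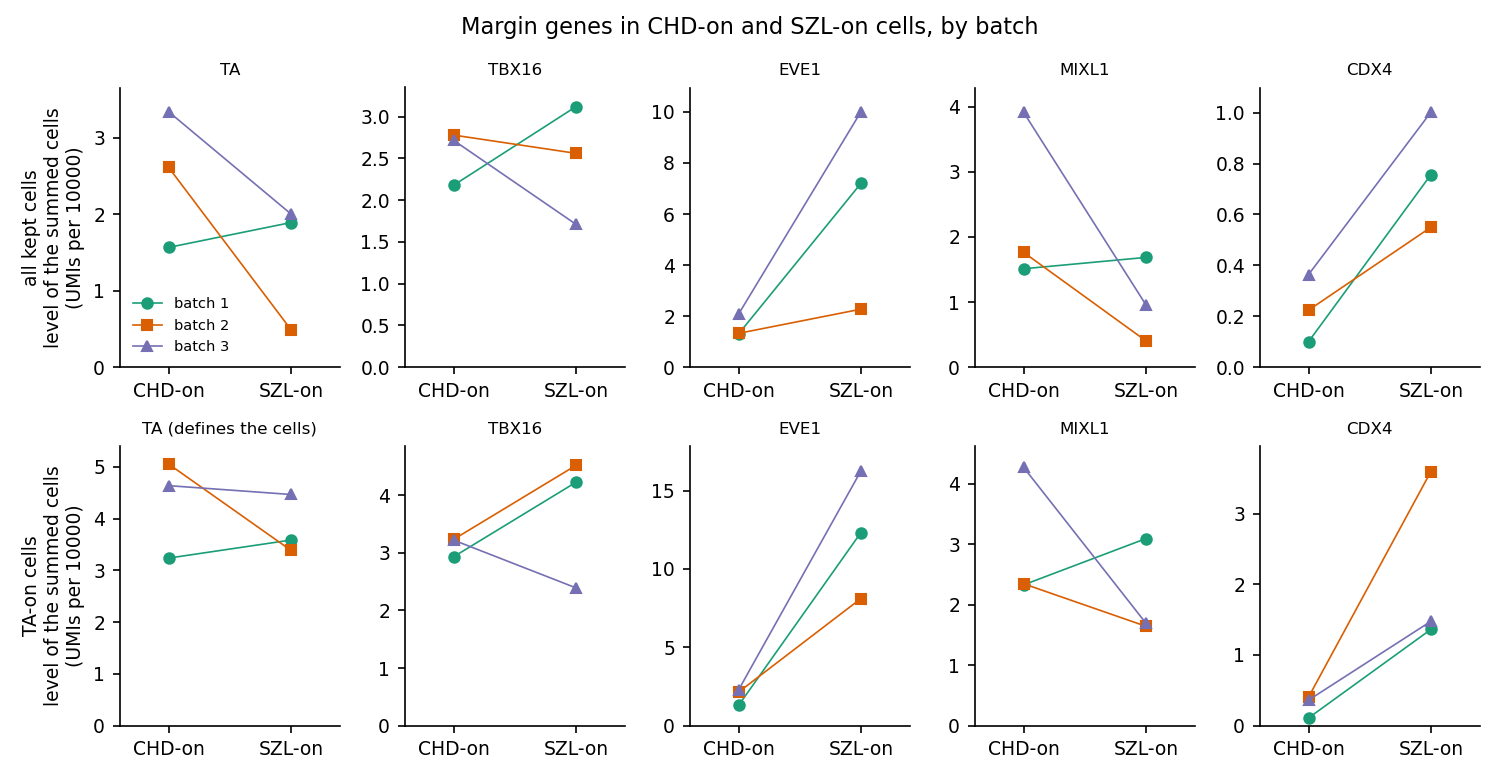
Level of the 5 genes (UMIs per 10000 of the summed cells, vertical axes) in CHD-on cells (left) and SZL-on cells (right), 1 line per batch, among all kept cells (top row) and among TA-on cells (bottom row). EVE1 and CDX4 are lower in CHD-on cells in every batch, with EVE1 at 1.30, 1.32 and 2.08 in CHD-on cells of the top row, while the lines of TA, TBX16 and MIXL1 cross.

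Seen from EVE1, the landmarks differed between the ends of its range. Cells with an EVE1 level of 10 or more (34, 25 and 76 in batches 1, 2 and 3) had CHD levels of 0.230, 0.053 and 0.135, against 0.984, 1.10 and 0.939 in cells with no EVE1 UMI. For SZL these were 0.568, 0.205 and 0.703, against 0.146, 0.117 and 0.125. These end ranges did not overlap for either landmark, though the share of all genes so separated was not counted. Between the end ranges the course was not steady: CHD in batch 3 had 0.939, 1.74, 2.04, 0.502 and 0.135 over the 5 ranges from low to high, and SZL in batch 2 had 0.117, 0.301, 0.819, 0.182 and 0.205. The SZL value of 0.819 rests mostly on 1 of 26 cells, which had a level of 20.4. SZL in batch 3 had 0.125, 0.392, 0.177, 0.355 and 0.703 over these ranges. No test was run on these ranges.

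The genes most like each margin gene were sought by the mean within-batch Pearson correlation of log2(1 + level) over 8300 genes and 1000 cells. The levels came from full counts of cells that differed in depth, and the part of depth in these values was not tested. TA was most like WNT11 (0.67), MIXL1 (0.60), SEBOX (0.58), HES6 (0.53) and EVE1 (0.51). MIXL1 was most like OSR1 (0.75), followed by WNT11 (0.66), ZIC2A (0.63), DKK1B (0.61) and GATA5 (0.61). EVE1 was most like HES6, a Hairy-related gene (0.54), VED (0.54) and CDX4 (0.54), then TA (0.51) and WNT11 (0.48). CDX4 was most like EVE1 (0.54), then TA (0.43), HES6 (0.42) and the WNT8A and WNT8-2 pair (0.38 each). TBX16 had weaker likenesses, to TA (0.42), WNT11 (0.40), MIXL1 (0.38), SEBOX (0.33) and EVE1 (0.32). Among the margin genes the weakest pair was TBX16 with CDX4 (0.26). With CHD, the values were 0.17 for MIXL1, 0.10 for TA, 0.03 for TBX16, -0.10 for CDX4 and -0.17 for EVE1. With SZL, they were 0.16 for EVE1, 0.09 for CDX4, 0.01 for TBX16, -0.02 for TA and -0.05 for MIXL1. In batch 2 alone EVE1 had 0.04 and CDX4 -0.02 with SZL.

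Levels of the 5 genes were last read in cells on for markers of other cell states. These classes overlap, and cells are given as means over batches with SD. MIXL1 was highest in cells on for MSGN1 (13, 10 and 43 cells), at 8.47 ± 1.76, against 1.21 ± 0.293 in the other cells. It had 6.40 ± 1.92 in cells on for GATA5, 5.46 ± 2.37 in those on for GSC and 4.17 ± 1.32 in those on for the endoderm factor gene SOX32. Neighbours in this order lay within their spread. MIXL1 had 1.92 ± 1.14 in cells on for OTX1A and 1.07 ± 0.554 in cells on for the ventral ectoderm gene FOXI1.

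TA had 6.84 ± 4.46 in MSGN1-on cells, with 3.31, 11.9 and 5.36 in batches 1, 2 and 3, and 4.22 ± 2.59 in GATA5-on cells. In cells on for GSC it had 2.45 ± 0.263, in SOX32-on cells 1.99 ± 0.403 and in OTX1A-on cells 1.09 ± 0.451. TBX16 had 5.48 ± 1.82 in MSGN1-on cells and 1.86 ± 0.175 in OTX1A-on cells, against 2.67 ± 0.503 in cells that were not on for OTX1A. EVE1 had its lowest mean in GSC-on cells, with 1.27, 1.45 and 1.08 in batches 1, 2 and 3, a mean of 1.26 ± 0.185 against 3.77 ± 1.63 in other cells. OTX1A-on cells lay within the spread of this, at 2.20, 0.104 and 2.52, a mean of 1.61 ± 1.31. The share of EVE1-on cells was 37.2% ± 10.6 in GSC-on cells and 24.7% ± 18.2 in OTX1A-on cells. CDX4 was low in GSC-on cells too, at 0.176 ± 0.167 against 0.457 ± 0.190, and had 0.234 ± 0.152 in OTX1A-on cells. In MSGN1-on cells EVE1 had 8.38 ± 3.48, against 3.35 ± 1.34 in the other cells, and CDX4 had 1.23 ± 0.966, against 0.404 ± 0.171. By batch CDX4 had 0.346, 2.26 and 1.09 in MSGN1-on cells, against 0.350, 0.334 and 0.654 in all kept cells. It was thus no higher in batch 1, and its value in batch 2 rests on 10 cells. In the cells richest in keratins, at least 59 in each batch, MIXL1 had 2.11 ± 0.516 against 1.53 ± 0.581 in the other cells, and EVE1 had 2.65 ± 0.847 against 3.92 ± 1.83. By batch MIXL1 had 1.52, 2.41 and 2.41 in them, against 1.12, 1.60 and 2.21 in all kept cells, so it was higher in each. EVE1 had 3.21, 1.67 and 3.07, against 3.11, 2.47 and 5.43, so it was lower in batches 2 and 3 only. No test was run on these cells.

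**Figure D5:**
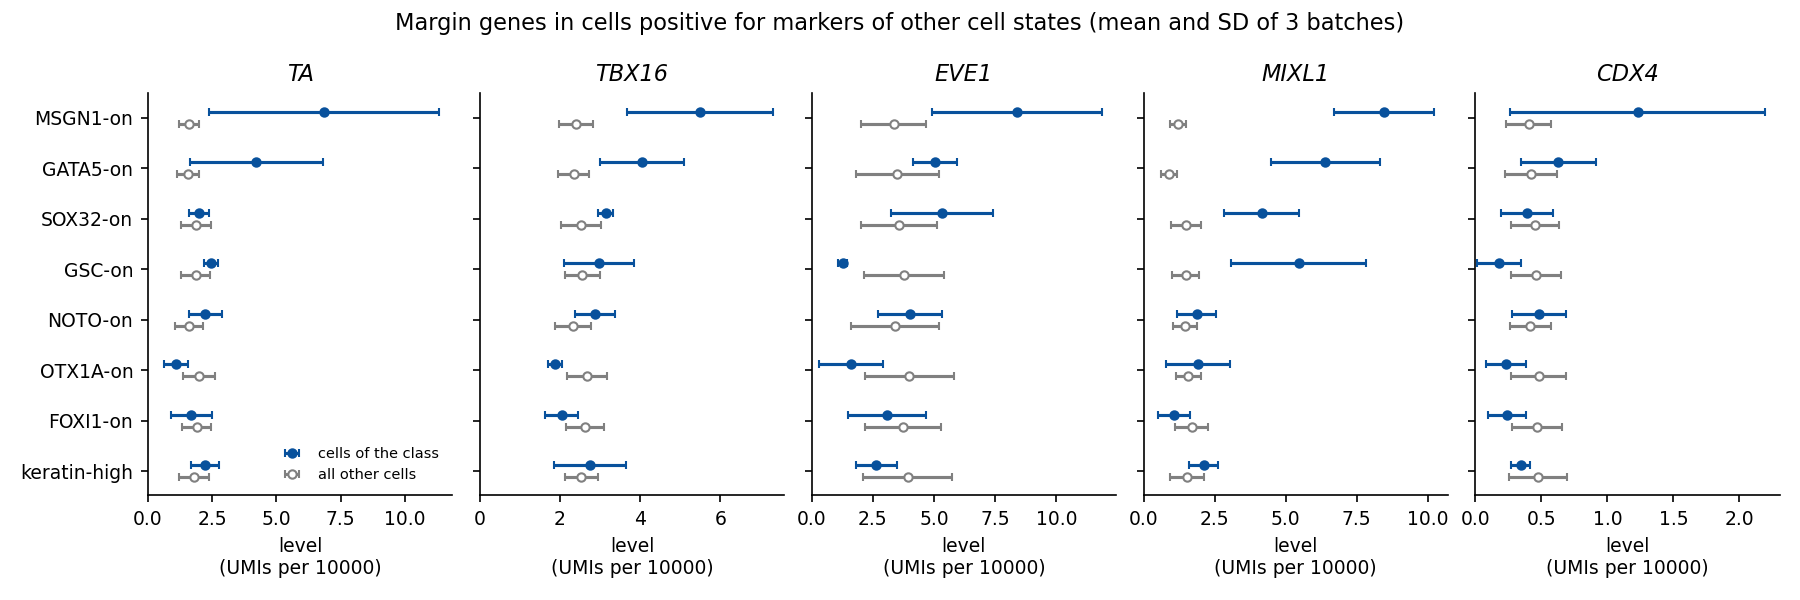
Mean level (UMIs per 10000, horizontal axes) of the 5 genes in cells on for each marker, and in the fifth of cells richest in keratins (filled points), above the value of all other cells (open points); bars are SD of 3 batches. MIXL1 stands at 8.47 in MSGN1-on and 5.46 in GSC-on cells, whereas EVE1 stands at 1.26 in GSC-on cells.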

How the data were processed

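Per the labels, single cells of zebrafish embryos were sequenced in 3 batches of 384 wells, and plates are named for batch 1. The deposited values are raw UMI counts per gene and well. Per the labels' protocols, the 5′ end was read with its strand and a tag of 5 random bases, so 1024 tags exist and high counts are compressed. The submitters' processing notes name Bowtie and Zv9, with no version of the aligner; how counts were made is otherwise not given in the sources used here. No doublet caller was run, and 39 kept wells had over 5000 detected genes.

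Cells with at least 2000 detected genes were kept. Detection was read after thinning to 10000 UMIs per cell (numpy 2.4.6, seed 11); shares carry Wilson 95% intervals (scipy 1.17.1), which cover counting error only. Class sums of each batch were tested with edgeR 4.0.16 in R 4.3.3 (quasi-likelihood test, TMM, batch as a block, 2-sided). The pairing comes from the batch, since both classes hold cells of the same batches. Tested were genes with a UMI in 5% or more of the cells compared, without the genes that define the classes. Calls were made at a Benjamini-Hochberg adjusted p under 0.05. SEs were derived as the log2 difference divided by the square root of F. DESeq2 1.42.0 was an alternative. The fit was tested on simulated sums. Cells richest in keratins are the top 20% of each batch by the mean log2(1 + level) of KRT4, KRT5, KRT8, KRT18 and CYT1. Named genes were the 5 genes with CHD and SZL, up to 8 highest and 8 lowest calls with one direction in 3 batches, up to 3 called genes per list and the 5 most alike genes; not every gene so named is printed. Members and lists were chosen with earlier results of these data known. Promoter motifs and sequences were not analysed here.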

Additional observations from a re-analysis of the deposited data

How the results depend on the processing

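The direction of the 5 genes and the landmarks was recomputed under 14 settings per result, 350 values in all, of which 18 came to pass the threshold, 16 no longer passed, 5 reversed and the others kept direction and side; where no value is given for it, the cause was not tested. Reversed were SZL in TA-on against TA-off cells without batch 2 (0.28, with -0.96 to 0.28 leaving out 1 batch), TBX16 in CHD-on against SZL-on cells without batch 3 (-0.23, with up to 0.33 leaving out another batch), with thinned classes (-0.13) and without the cells richest in keratins (-0.068), and TBX16 in the same comparison within TA-on cells without batch 1 (0.071, with -0.40 at the lowest leaving out another batch, and -0.45 at the lowest over all settings). Of the genes tested in TA-on against TA-off cells 1.90% were called, and 0.940% without the replicate block. For EVE1-on cells without against with TA, 0.314% became 0.882% with DESeq2, 0.703% of 13225 genes with no filter on low counts, 0.579% with stricter on calls, 0.481% with at least 2500 genes and 0.0725% to 0.604% leaving out 1 batch. For MIXL1-on against MIXL1-off cells, 0.730% became 0.462% without the block, 1.28% with DESeq2, 0.984% of 13107 genes with no filter and 0.450% to 0.839% leaving out 1 batch. For CHD-on against SZL-on cells, 0.243% became 0.558% with DESeq2, 0.586% of 12793 genes with no filter and 0.0849% to 0.558% leaving out 1 batch. Within TA-on cells, 0.158% became 0.0364% without the block and 0.0849% to 0.267% leaving out 1 batch. Detection moved with depth: full counts gave 54.5% for TA, 88.2% for TBX16, 46.8% for MIXL1 and 28.6% for CDX4, thinning to 20000 UMIs gave 80.5% for TBX16, and at least 2 thinned UMIs gave 52.3% for TBX16, 23.98% for MIXL1 and 10.4% for CDX4. Leaving out the 2 near-identical wells and taking batch 1 from plates 7 and 8 were chosen after seeing the data. Few cells limit the comparison within TA-on cells, with 2 SZL-on cells in batch 2.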
